A study of Mus musculus with 12 samples.

Results

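The 40 genes described here are induced by interferons and were followed in mouse liver across 12 one-colour microarrays, 1 mouse per array. They were taken by gene symbol from 31870 symbols on the array, and each was read from its brightest probe. Of the 40, 39 were well above background on at least 3 arrays and were tested among 19529 genes. Oas1g, a paralog of Oas1a, was well above background on 1 array, a WT sham liver, and was not tested. Levels are log2 of the processed signal minus the 75th percentile of the array, so a level of 0 equals that percentile and each step of 1 is a 2-fold difference.

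The mice were FSAP-/- mice, which lack the circulating protease encoded by Habp2, or WT littermates from heterozygous crosses, and were operated on by bile duct ligation (BDL) or sham surgery. The groups were FSAP-/- BDL, FSAP-/- sham, WT BDL and WT sham, with 3 mice in each. All mice were 20 to 30 weeks old, came from a backcross to BalbC up to generation 3 and gave liver 2 weeks after surgery. The labels give neither the deleted part of Habp2 nor the sex of the mice. Ligation blocks the flow of bile and is a model of cholestatic injury with bile duct proliferation and fibrosis.

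Type I interferons (IFN-alpha and IFN-beta) bind the receptor IFNAR, which activates a transcription complex containing STAT2 and IRF9. That complex binds the interferon-stimulated response element and turns on antiviral genes of the Ifit, Oas and Mx families. Interferon gamma, made mainly by T and NK cells, binds IFNGR and signals through the gamma-activated site, which turns on Irf1, the GTPases of the Gbp and Irg families and the T cell attractant Cxcl9. The sets overlap: many members answer to both kinds of interferon. The members were read as 11 Ifit, Oas and Mx genes (10 tested), 7 Gbp, Irg and Cxcl9 genes (all tested) and 22 remaining genes. In the array's mm9 coordinates several share a chromosome: Ifit1, Ifit2 and Ifit3 on chromosome 19, the 6 Oas genes with Cxcl9, Cxcl10, Cxcl11 and Gbp4 on chromosome 5, and Gbp2 and Gbp3 on chromosome 3.

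Habp2 checked the genotype labels. Its level was -7.18, -6.98 and -6.95 in FSAP-/- BDL livers and -3.45, -6.74 and -6.72 in FSAP-/- sham livers, against 5.15, 5.03 and 4.97 in WT BDL livers and 5.37, 5.47 and 5.5 in WT sham livers. In the FSAP-/- groups it was well above background on 1 of 6 arrays, FSAP-/- sham replicate 1. That array also stood alone on its slide. Slide and group were tangled: slide 1 held all WT sham arrays and WT BDL replicate 1, slide 2 held WT BDL replicates 2 and 3 with FSAP-/- sham replicate 2, and slide 3 held FSAP-/- sham replicate 3 with all FSAP-/- BDL arrays. Y-linked transcripts were above background on FSAP-/- sham replicate 1 and on FSAP-/- BDL replicates 1 and 2, and on none of the 6 WT arrays. Xist was well above background on each array without Y-linked signal and on none with it. The arrays that stand apart below, FSAP-/- sham replicate 1 and FSAP-/- BDL replicate 1, both carried Y-linked signal. Sex, as read from these transcripts, was thus tangled with genotype, and its part in the results was not tested. Since Habp2 and the Ifit1, Ifit2 and Ifit3 probes all lie on chromosome 19, 21.7 Mb apart in the array's mm9 coordinates, sequence carried along with the deleted allele could reach them, which was not tested.

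Among the members, 2 FSAP-/- arrays stood apart from their groups. FSAP-/- BDL replicate 1 held the highest level of its group for 38 of 39 members, against 27.8% of all genes tested. FSAP-/- sham replicate 1 held the lowest level of its group for 32 of 39 members, against 41.9% of all genes. The median difference of the members from their WT sham means was 0.64, -0.29 and -0.29 on the FSAP-/- BDL arrays and -0.82, -0.11 and -0.26 on the FSAP-/- sham arrays, against -0.76, -0.75 and -0.63 on the WT BDL arrays. The median SD of a member within its group was 0.56 in FSAP-/- BDL, 0.43 in FSAP-/- sham, 0.22 in WT BDL and 0.16 in WT sham livers. The member counts and medians, and the members that changed, are therefore also given without these 2 arrays, a check chosen after the values were seen, which leaves 2 mice in each FSAP-/- group. These arrays were picked by the members' own levels. Leaving both out therefore lowers the FSAP-/- BDL change of most members by construction. Values and p-values without them show how far a result rests on these arrays and are not separate tests. A change printed with no such value was computed over all 12 arrays.

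**Figure D1:**
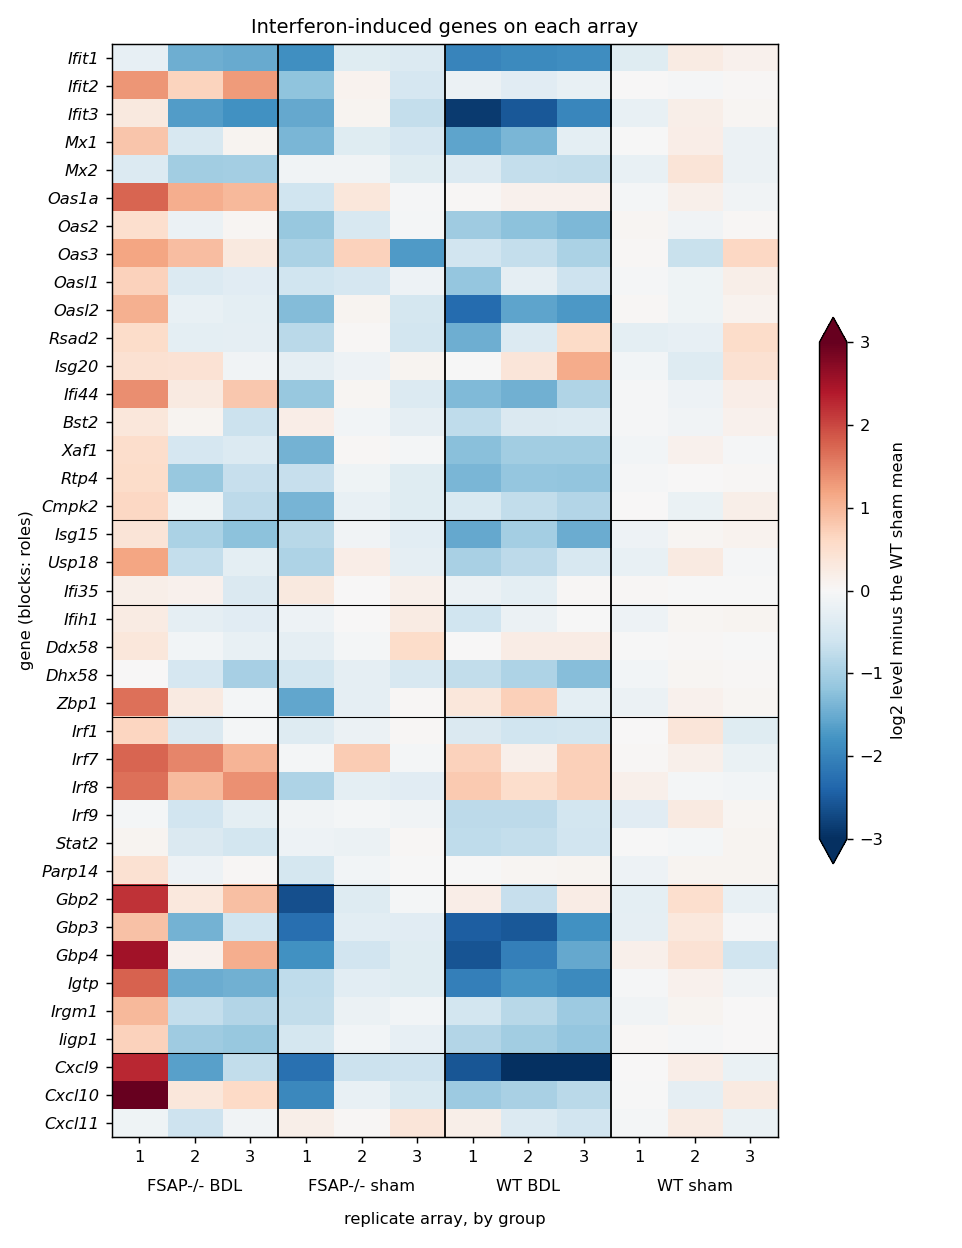
Log2 level of the 39 tested members (rows, in blocks by role) on each of the 12 arrays (columns, by group and replicate), as the difference from the gene's WT sham mean; colours saturate at 3 in either direction. The WT BDL columns are mostly blue, FSAP-/- BDL replicate 1 is mostly red, and FSAP-/- sham replicate 1 is mostly blue.

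Liver is a mixture of cells, and fewer cells of a type and less RNA per cell cannot be told apart in these arrays. After bile duct ligation more members rose than fell in FSAP-/- mice. A set of 9 members (Ifit2, Oas1a, Oas3, Ifi44, Irf7, Irf8, Gbp2, Gbp4 and Cxcl10) rose and 1 (Mx2) fell in FSAP-/- BDL against FSAP-/- sham livers (limma, Benjamini-Hochberg adjusted p below 0.05 over all genes), while 16.2% of all genes were called higher and 22.8% lower. Of these, Oas3 met the filter for testing only with its FSAP-/- BDL arrays, so its rise is weak evidence. The median change was 0.37, against -0.16 over all genes, and the FSAP-/- BDL arrays lay wholly above the FSAP-/- sham arrays for 8 members and wholly below for 2, where 18.9% of all genes lay above and 28.6% below. This count rested on the arrays that stood apart. Without both, 4 members (Ifit2, Oas1a, Irf8 and Cxcl10) rose and 8 (Ifit1, Ifit3, Mx2, Rtp4, Isg15, Igtp, Irgm1 and Iigp1) fell, and the median turned to -0.18, against -0.15 over all genes. In that setting 14.4% of all genes were called higher and 19.4% lower, so 12 of 39 members called (30.8%) was near the 33.9% of all genes. Without FSAP-/- BDL replicate 1 alone the median was -0.0068, and without FSAP-/- sham replicate 1 alone it was 0.13.

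In WT mice the same operation was followed by lower levels of many members. Of 39, 14 fell and 1 (Irf8) rose in WT BDL against WT sham livers, while 17.7% of all genes tested were called lower and 15.2% higher. The median log2 change was -0.72, against -0.034 over all genes, and 32 of 39 values were negative. The 3 WT BDL arrays lay wholly below the 3 WT sham arrays for 26 members and wholly above for 1, where 27.9% of all genes lay below and 24.2% above. The BDL comparisons of the 2 genotypes share no arrays: Ifi44 and Gbp4 were called in opposite directions, and Irf8 rose in both. A member called in only 1 genotype is not thereby different between them, and the interaction called 0 of 39 members.

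Both counts fell with slide as a fixed block, which leaves 1 array against 3 in each BDL comparison. Lost power and slide cannot be told apart there. With slide as a random block, 9 of the 10 FSAP-/- calls and 15 of the 15 WT calls were kept. Those were 23.1% and 38.5% of members, against 38.2% and 31% of all genes. With slide as a fixed block, so that WT BDL replicate 1 and FSAP-/- sham replicate 3 carried the BDL comparisons within slides, 5 members (Ifit2, Oas1a, Oas3, Irf7 and Irf8) were called in FSAP-/- mice, with a median of 0.14, and 4 (Ifit1, Ifit3, Oas2 and Oasl2) in WT mice, with a median of -0.76. The 5 all rose, 12.8% of the members against 10.2% of all genes called higher with the block. The 4 all fell, 10.3% of the members against 9.07% of all genes called lower. In either direction 21.3% and 16.8% of all genes were called.

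Between genotypes, few calls were made. After BDL, 1 member (Ifi44) was higher in FSAP-/- than in WT livers and none lower, while 0.123% of all genes were called higher and 0.0922% lower. The median difference was 0.75, against -0.028 over all genes, 35 of 39 values were positive, and 17 members (43.6%) had an unadjusted limma p below 0.05, against 12.9% of all genes. The FSAP-/- BDL arrays lay wholly above the WT BDL arrays for 19 members, against 6.59% of all genes. Without the 2 arrays that stood apart the median was 0.32, against -0.021 over all genes, and 30 of 39 values were positive. Ifi44 and Cxcl10 were called in that setting (5.13% of members, against 0.205% of all genes). With slide as a block the median was 0.88 and Ifi44 was not called.

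After sham surgery limma called 0 of 39 members between FSAP-/- and WT livers, while 0.00512% of all genes were called higher and 0.0102% lower. One member, Irf8, had an unadjusted p below 0.05 (2.56%, against 7.88% of all genes). The median difference was -0.43, against 0.036 over all genes, with 34 of 39 values negative, and it was -0.21 without FSAP-/- sham replicate 1. With slide as a block it was -0.18 and 27 of 39 values were negative. The FSAP-/- sham arrays lay wholly below the WT sham arrays for 10 members, against 7.26% of all genes.

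The interaction, which sets the BDL change in FSAP-/- mice against that in WT mice, called 0 of 39 members by limma, while 0.0102% of all genes were called in the positive direction and 0% in the negative. In all, 21 members (53.8%) had an unadjusted p below 0.05, against 13.7% of all genes. Its median was 1.17, against -0.077 over all genes, and 34 of 39 values were positive. Without the 2 arrays that stood apart the median was 0.57 and 31 values were positive. The genotypes' difference in response to BDL thus did not pass the threshold for any member tested.

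**Figure D2:**
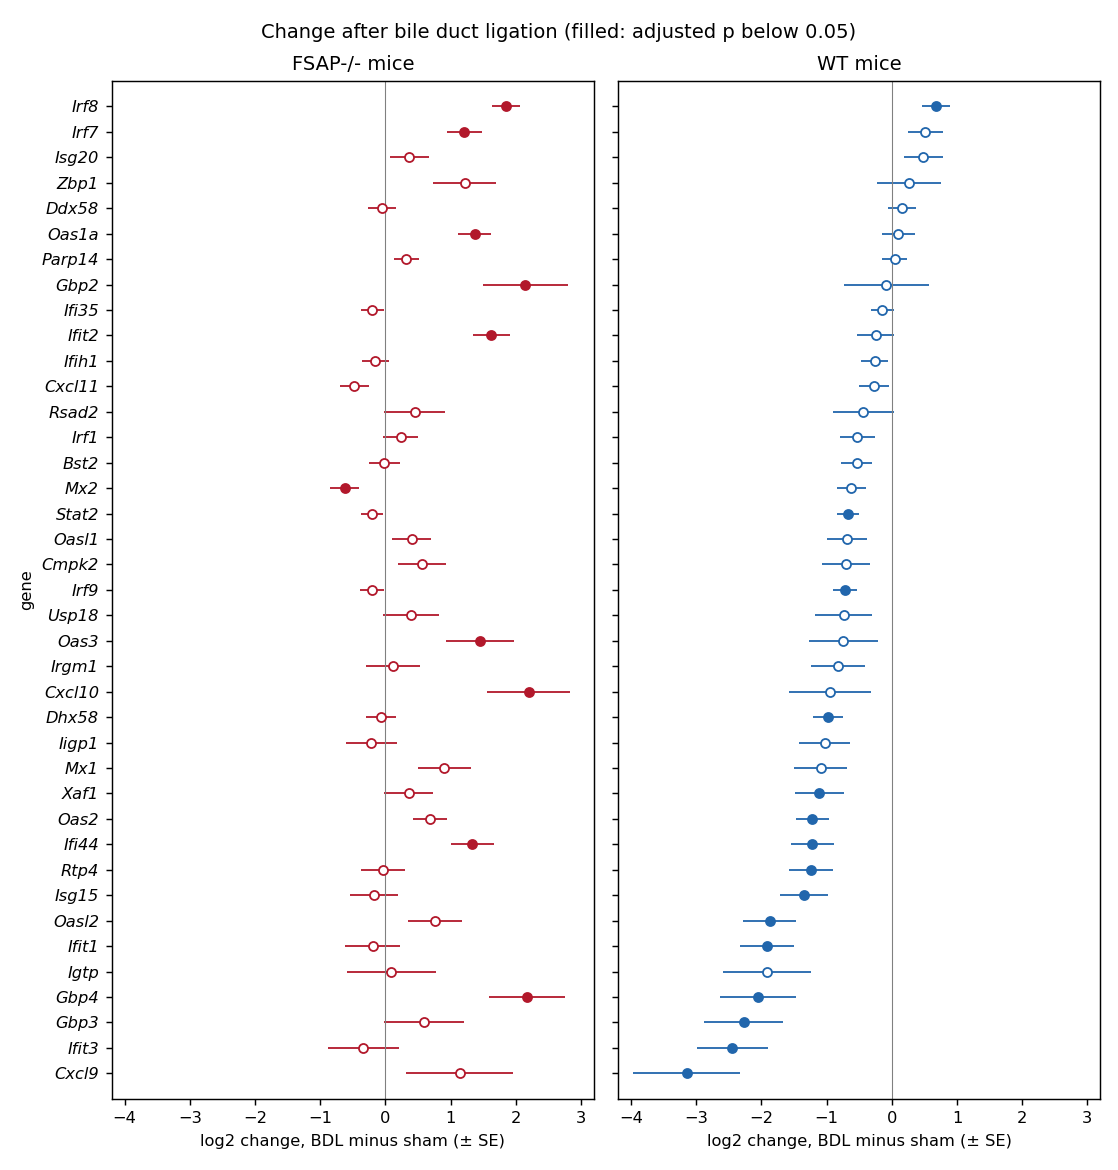
Log2 change after BDL (BDL minus sham, ± SE) of each tested member in FSAP-/- mice (left) and WT mice (right), sorted by the change in WT mice; filled points passed the adjusted threshold. Cxcl9, Ifit3 and Gbp3 have the largest falls in WT mice, and 9 members are filled on the positive side in FSAP-/- mice.

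The ligands themselves were mostly at the edge of detection. Of 19 interferon genes listed, 15 were on the array and 7 were tested. Ifnb1, the gene of IFN-beta, was not well above background on any of the 12 arrays, with levels between -7.80 and -6.80. Ifng, the gene of interferon gamma, was well above background on 1 array: its level was -3.07, -6.98 and -6.14 in FSAP-/- BDL livers, -7.20, -6.85 and -6.72 in FSAP-/- sham livers, -6.60, -7.45 and -7.67 in WT BDL livers and -6.28, -5.36 and -6.99 in WT sham livers. That single array was FSAP-/- BDL replicate 1, the one on which the members were highest. Ifna1 fell in FSAP-/- BDL against FSAP-/- sham livers (-0.60 ± 0.13, adjusted p = 0.00480), with -0.50 without the 2 arrays that stood apart (adjusted p = 0.0352).

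Receptor chains rose after BDL. Of 10 receptor and kinase genes, 5 rose in FSAP-/- and 5 in WT mice, and by limma 0 fell in either, also at an unadjusted p below 0.05, while 16.2% of all genes were called higher in FSAP-/- and 15.2% in WT mice. Leaving out the 2 arrays that stood apart, 3 rose in FSAP-/- mice, and the calls of Ifngr2 (0.64, adjusted p = 0.0776) and Jak2 (0.51, adjusted p = 0.0528) were lost. Ifnlr1, the specific chain of the interferon lambda receptor, had -2.04, -2.33 and -2.42 in FSAP-/- BDL livers against -5.11, -6.30 and -5.96 in FSAP-/- sham livers, and -2.14, -1.77 and -2.32 in WT BDL livers against -5.01, -6.54 and -5.16 in WT sham livers. It was not well above background in WT sham livers, so its rise in WT mice was at least 7.30-fold (adjusted p = 0.000129). The rise in FSAP-/- mice was also called (adjusted p = 0.000107), but only 1 of the 3 FSAP-/- sham arrays was well above background, so its size is not given. Ifngr1, the ligand-binding chain for interferon gamma, rose by 1.25 ± 0.16 in FSAP-/- and 0.75 ± 0.16 in WT mice, and its partner Ifngr2 by 0.86 ± 0.22 and 0.78 ± 0.22. Il10rb, the shared second chain of the lambda receptor, rose by 1.41 ± 0.20 in FSAP-/- and 0.92 ± 0.20 in WT mice. Ifnar1 and Ifnar2, the chains of the type I receptor, were not called, with changes of -0.18 and -0.34 in FSAP-/- and 0.10 and 0.16 in WT mice. Of the kinases, Jak2 rose in FSAP-/- mice (0.46 ± 0.14) and Jak1 in WT mice (0.46 ± 0.15).

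Of the 6 members that encode signal and transcription factors, 2 rose in FSAP-/- mice, and 1 rose and 2 fell in WT mice, while 16.2% of all genes rose and 22.8% fell in FSAP-/- mice and 15.2% rose and 17.7% fell in WT mice. Stat2 and Irf9, members of the type I complex, had changes of -0.21 ± 0.17 and -0.21 ± 0.19 in FSAP-/- mice, and -0.42 and -0.35 without the 2 arrays that stood apart, none called. Both fell in WT BDL against WT sham livers, by 0.68 ± 0.17 and 0.72 ± 0.19 on the log2 scale (adjusted p = 0.0104 and 0.0137). Stat2 stood at 2.33, 1.83 and 1.70 in FSAP-/- BDL livers, 2.11, 2.09 and 2.29 in FSAP-/- sham livers, 1.51, 1.56 and 1.69 in WT BDL livers and 2.24, 2.20 and 2.34 in WT sham livers. The WT BDL values lay below the 9 others. The Irf9 call was lost without WT sham replicate 2 (adjusted p = 0.0605).

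Irf8, a factor of macrophages, dendritic cells and B cells, rose after BDL in both genotypes. Its level was 1.71, 1.0 and 1.44 in FSAP-/- BDL livers, -0.87, -0.25 and -0.29 in FSAP-/- sham livers, 0.84, 0.58 and 0.77 in WT BDL livers and 0.20, -0.0041 and -0.023 in WT sham livers. The change was 1.85 ± 0.21 in FSAP-/- mice (adjusted p = 0.000119), with 1.49 without the 2 arrays that stood apart, and 0.67 ± 0.21 in WT mice (adjusted p = 0.0336). The call in WT mice was lost without any 1 of the 6 WT arrays (adjusted p up to 0.0962). Groups did not overlap in either comparison. Irf7, the amplifier of type I interferon production, rose in FSAP-/- mice: its level was 0.62, 0.33 and -0.10 in FSAP-/- BDL livers against -1.20, -0.38 and -1.20 in FSAP-/- sham livers (1.21 ± 0.27, adjusted p = 0.00514). Without the 2 arrays the change was 0.90 (adjusted p = 0.0548). In WT mice Irf7 had -0.44, -0.99 and -0.43 after BDL against -1.11, -0.97 and -1.32 after sham surgery (0.52 ± 0.27, adjusted p = 0.169).

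Irf1, the early factor of the gamma response, was not called after BDL, with 0.23 ± 0.27 in FSAP-/- and -0.53 ± 0.27 in WT mice, although the WT BDL arrays (2.41, 2.24 and 2.30) lay below the WT sham arrays (2.85, 3.2 and 2.48). Parp14, an ADP-ribosyltransferase, had changes of 0.32 ± 0.19 in FSAP-/- and 0.043 ± 0.19 in WT mice and was not called. The promoters of Irf7 and Irf1 are shown because these 2 factors are the best-known feedback members of the type I and the gamma arm. Each line gives the 250 bases before the annotated start, 5′ to 3′ in the direction of the gene (RefSeq, GRCm38.p6; Irf7 on the minus strand at chr7:141266425-141266674, Irf1 on the plus strand at chr11:53769764-53770013). Capitals mark matches on either strand to the core of the response element, GAAANNGAAA, or of the gamma-activated site, TTCNNNGAA.
Irf7: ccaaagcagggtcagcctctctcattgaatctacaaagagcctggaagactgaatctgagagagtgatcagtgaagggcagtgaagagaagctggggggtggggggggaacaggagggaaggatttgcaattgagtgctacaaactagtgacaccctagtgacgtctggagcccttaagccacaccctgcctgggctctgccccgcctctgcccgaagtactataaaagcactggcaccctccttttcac
Irf1: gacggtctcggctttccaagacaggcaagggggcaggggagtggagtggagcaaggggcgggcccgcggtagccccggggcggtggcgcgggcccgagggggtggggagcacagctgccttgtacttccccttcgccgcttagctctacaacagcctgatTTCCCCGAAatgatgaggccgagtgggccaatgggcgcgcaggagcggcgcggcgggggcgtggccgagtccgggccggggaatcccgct
The Irf1 window holds 1 match to the gamma-activated site, and the Irf7 window holds neither motif.

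The sensors of foreign nucleic acid are 4 members. Dhx58 (LGP2), which tunes RIG-I-like receptors, stood at -0.36, -0.86 and -1.36 in FSAP-/- BDL livers against -0.91, -0.62 and -0.83 in FSAP-/- sham livers (-0.068 ± 0.23, and -0.38 without the 2 arrays that stood apart). It fell in WT mice, where it had -1.11, -1.27 and -1.64 in WT BDL livers against -0.44, -0.31 and -0.32 in WT sham livers (-0.98 ± 0.23, adjusted p = 0.00873), with no overlap. Ifih1 (MDA5) and Ddx58 (RIG-I), receptors for viral RNA, had changes of -0.16 and -0.054 in FSAP-/- and -0.26 and 0.16 in WT mice, none called. A second, dimmer probe of Ddx58 was called lower in WT BDL livers (-1.0, adjusted p = 0.00887), so the probes of this gene disagree. Zbp1, a sensor of Z-form nucleic acid, had 2.94, 1.56 and 1.24 in FSAP-/- BDL livers against -0.26, 1.03 and 1.33 in FSAP-/- sham livers (1.22 ± 0.49, adjusted p = 0.0706), and the change was 0.22 without the 2 arrays. Its second probe passed the threshold there (1.51, adjusted p = 0.0426).

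The Ifit genes, whose products bind viral RNA and block its translation, differed in their calls. In WT mice Ifit1 and Ifit3 fell and Ifit2 was not called. Ifit3 stood at 1.06, -0.90 and -1.05 in FSAP-/- BDL livers, -0.77, 0.85 and 0.052 in FSAP-/- sham livers, -2.09, -1.76 and -1.18 in WT BDL livers and 0.55, 0.94 and 0.84 in WT sham livers. The WT BDL arrays lay below every sham array, and in FSAP-/- BDL livers 1 array was high and 2 were low. The BDL change in FSAP-/- mice was -0.34 ± 0.55 (adjusted p = 0.656), and -1.43 (adjusted p = 0.0128) without the 2 arrays that stood apart. In WT mice the change was -2.45 ± 0.55 (adjusted p = 0.00601).

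Ifit1 followed the same course, at -0.22, -1.45 and -1.49 in FSAP-/- BDL livers, -1.82, -0.34 and -0.41 in FSAP-/- sham livers, -1.96, -1.89 and -1.85 in WT BDL livers and -0.35, 0.26 and 0.14 in WT sham livers. For FSAP-/- mice the change was -0.20 ± 0.42 (adjusted p = 0.740) with all arrays and -1.10 (adjusted p = 0.00422) without the 2 arrays. Its change was -1.91 ± 0.42 in WT mice (adjusted p = 0.00557). Ifit2 went the other way in FSAP-/- mice, with -1.74, -2.40 and -1.78 in FSAP-/- BDL livers against -4.26, -2.96 and -3.58 in FSAP-/- sham livers. That rise was 1.63 ± 0.29 (adjusted p = 0.00137) and 1.18 (adjusted p = 0.00800) without the 2 arrays, and all 3 FSAP-/- BDL arrays lay above all 3 FSAP-/- sham arrays. In WT livers Ifit2 had -3.25, -3.41 and -3.28 after BDL against -3.06, -3.10 and -3.04 after sham surgery (-0.25 ± 0.29, adjusted p = 0.548).

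Oas enzymes make the 2′-5′ oligoadenylates that activate RNase L, and Oasl2 is a relative in the same family. In FSAP-/- mice the BDL change was 0.68 ± 0.26 for Oas2 and 0.76 ± 0.41 for Oasl2, neither called. These were 0.20 and -0.047 without the 2 arrays that stood apart. Both fell in WT BDL against WT sham livers, by 1.22 ± 0.26 and 1.87 ± 0.41 on the log2 scale (adjusted p = 0.00460 and 0.00530). Oasl2 had 0.24, -1.07 and -1.14 in FSAP-/- BDL livers, -2.14, -0.76 and -1.36 in FSAP-/- sham livers, -3.15, -2.43 and -2.56 in WT BDL livers and -0.82, -0.97 and -0.74 in WT sham livers. All 3 WT BDL arrays lay below the other 9.

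Oas1a rose in FSAP-/- mice and was not called in WT mice. It had 3.27, 2.63 and 2.51 in FSAP-/- BDL livers against 0.93, 1.89 and 1.5 in FSAP-/- sham livers (1.37 ± 0.25, adjusted p = 0.00176), and 0.88 (adjusted p = 0.00589) without the 2 arrays. In WT livers the levels were 1.58, 1.67 and 1.67 after BDL and 1.48, 1.69 and 1.44 after sham surgery, which overlap (0.10 ± 0.25). Oas3 was dim, well above background on 5 arrays: 3 FSAP-/- BDL, 1 FSAP-/- sham and 1 WT sham. It thus met the filter of at least 3 arrays only with the group in which it was called higher. Its rise in FSAP-/- mice (1.45 ± 0.53, adjusted p = 0.0495) was lost without any 1 of 10 of the 12 arrays (adjusted p up to 0.179) and without the 2 arrays that stood apart (adjusted p = 0.247). After BDL it was at least 1.92-fold brighter in FSAP-/- than in WT livers, where it was not well above background, and this difference was not called (adjusted p = 0.252). Oasl1, which restrains translation of Irf7, was not called, with 0.40 ± 0.30 in FSAP-/- and -0.68 ± 0.30 in WT mice.

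The Mx genes encode dynamin-like GTPases, and most inbred laboratory strains, BALB/c among them, carry defective Mx alleles. Mx2 fell in FSAP-/- mice, with -0.62, -1.25 and -1.24 in FSAP-/- BDL livers against -0.32, -0.33 and -0.57 in FSAP-/- sham livers (-0.63 ± 0.22, adjusted p = 0.0434). This call was lost without any 1 of 9 of the 12 arrays (adjusted p up to 0.128) but was kept without the 2 arrays that stood apart (adjusted p = 0.0302). The change in WT mice was -0.62 ± 0.22 and did not pass (adjusted p = 0.0507). Mx1 had 0.90 ± 0.41 in FSAP-/- mice (adjusted p = 0.103) and -1.09 ± 0.41 in WT mice (adjusted p = 0.0619).

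Promoters of the 3 Ifit, Oas and Mx genes with the largest WT changes and a listed window are shown for comparison of their motif content. All are on the plus strand (RefSeq, GRCm38.p6), Ifit3 at chr19:34583279-34583528, Ifit1 at chr19:34640639-34640888 and Oasl2 at chr5:114896684-114896933, and capitals mark the same 2 motifs.
Ifit3: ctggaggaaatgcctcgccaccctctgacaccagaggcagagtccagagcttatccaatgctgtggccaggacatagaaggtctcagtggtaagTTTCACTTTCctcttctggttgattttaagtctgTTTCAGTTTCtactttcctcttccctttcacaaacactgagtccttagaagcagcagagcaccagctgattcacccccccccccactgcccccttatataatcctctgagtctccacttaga
Ifit1: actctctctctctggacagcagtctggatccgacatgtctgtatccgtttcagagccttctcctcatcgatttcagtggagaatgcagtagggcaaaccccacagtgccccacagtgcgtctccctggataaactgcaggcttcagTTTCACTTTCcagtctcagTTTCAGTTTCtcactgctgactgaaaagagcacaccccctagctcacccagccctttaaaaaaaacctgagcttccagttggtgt
Oasl2: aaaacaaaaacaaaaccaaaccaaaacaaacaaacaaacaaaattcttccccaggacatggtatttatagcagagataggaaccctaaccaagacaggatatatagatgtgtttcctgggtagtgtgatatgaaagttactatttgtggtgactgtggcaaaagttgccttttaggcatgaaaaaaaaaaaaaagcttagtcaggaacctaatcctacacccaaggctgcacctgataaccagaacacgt
Ifit3 and Ifit1 each carry 2 matches to the response element core on the reverse strand, and these letters do not occur in the Oasl2 window. All 3 genes fell in WT livers.

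Ifi44, an interferon-induced protein of the cytoplasm, was the member called in 3 of the 5 comparisons. Its level was 0.69, -0.43 and 0.10 in FSAP-/- BDL livers, -1.85, -0.65 and -1.12 in FSAP-/- sham livers, -2.03, -2.15 and -1.61 in WT BDL livers and -0.74, -0.86 and -0.52 in WT sham livers. It rose after BDL in FSAP-/- mice (1.33 ± 0.33, adjusted p = 0.00924) and fell in WT mice (-1.22 ± 0.33, adjusted p = 0.0162). After BDL it was higher in FSAP-/- than in WT livers (2.05 ± 0.33, adjusted p = 0.0407), with all 3 FSAP-/- arrays above all 3 WT arrays. The rise in FSAP-/- mice was 0.72 (adjusted p = 0.0669) without the 2 arrays that stood apart. The fall in WT mice was lost without WT sham replicate 3 or WT BDL replicate 2 (adjusted p up to 0.0587). The genotype difference after BDL was lost without any 1 of 9 of the 12 arrays (adjusted p up to 0.166), while without the 2 arrays it was 1.76 (adjusted p = 0.0385).

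Rtp4, a chaperone of receptors, and Xaf1, a regulator of apoptosis, fell in WT livers. Their changes in FSAP-/- mice were -0.038 ± 0.34 and 0.35 ± 0.37. Rtp4 fell there (-0.67, adjusted p = 0.0229) and Xaf1 had -0.44 (adjusted p = 0.0535) without the 2 arrays that stood apart. In WT mice Rtp4 had 1.11, 1.33 and 1.29 in WT BDL livers against 2.45, 2.49 and 2.52 in WT sham livers (-1.24 ± 0.34, adjusted p = 0.0177). Xaf1 had -1.25, -1.03 and -1.05 against -0.09, 0.12 and -0.031 in the same groups (-1.11 ± 0.37, adjusted p = 0.0403). Neither pair of groups overlapped. The Xaf1 call was lost without any 1 of the 6 WT arrays (adjusted p up to 0.108) and the Rtp4 call without WT sham replicate 3 (adjusted p = 0.0505).

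The other 4 effectors were not called in any of the 5 comparisons. Rsad2 (viperin), which makes a chain-terminating nucleotide, had levels of -2.36, -1.30 and -0.31 in WT BDL livers against -1.17, -1.14 and -0.35 in WT sham livers, and the mice of 1 group differed more than the groups. Cmpk2, its neighbour in the genome and a nucleotide kinase, had changes of 0.56 in FSAP-/- and -0.70 in WT mice. Bst2 (tetherin), which holds budding virus at the cell surface, had -0.021 and -0.54 in the same order. Isg20, an exonuclease, had 0.37 and 0.48, while its dimmer probe was called higher in FSAP-/- BDL livers (0.72, adjusted p = 0.0403).

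Isg15, the ubiquitin-like modifier, fell in WT mice. Its level was 3.52, 2.18 and 1.91 in FSAP-/- BDL livers, 2.30, 3.03 and 2.81 in FSAP-/- sham livers, 1.59, 2.11 and 1.64 in WT BDL livers and 2.96, 3.18 and 3.23 in WT sham livers. The FSAP-/- change was -0.18 ± 0.37, and -0.88 (adjusted p = 0.0152) without the 2 arrays. The change was -1.35 ± 0.37 in WT mice (adjusted p = 0.0166), lost without WT sham replicate 3 or WT BDL replicate 3 (adjusted p up to 0.0526). Usp18, which removes ISG15 and damps IFNAR signalling, was not called (0.39 ± 0.43 in FSAP-/- and -0.74 ± 0.43 in WT mice), nor was Ifi35, the partner of NMI (-0.20 ± 0.18 and -0.15 ± 0.18). The Isg15 promoter (RefSeq, GRCm38.p6, minus strand, chr4:156200819-156201068) is shown because it holds the most response element matches of any member window, and was chosen after the matches were seen.
Isg15: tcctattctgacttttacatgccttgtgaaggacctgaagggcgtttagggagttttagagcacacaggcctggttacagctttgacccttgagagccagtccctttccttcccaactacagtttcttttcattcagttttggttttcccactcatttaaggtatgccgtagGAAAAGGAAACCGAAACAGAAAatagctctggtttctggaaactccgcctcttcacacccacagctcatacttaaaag
The 3 matches overlap in 1 run of bases.

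The GTPases of the Gbp and Irg families, which attack the vacuoles of intracellular pathogens, varied widely between FSAP-/- mice. Gbp4 stood at 1.41, -0.99 and -0.016 in FSAP-/- BDL livers, -2.93, -1.70 and -1.48 in FSAP-/- sham livers, -3.69, -3.16 and -2.64 in WT BDL livers and -0.95, -0.67 and -1.71 in WT sham livers. It rose after BDL in FSAP-/- mice (2.18 ± 0.58, adjusted p = 0.0133) and fell in WT mice (-2.05 ± 0.58, adjusted p = 0.0203). After BDL all 3 FSAP-/- arrays were above all 3 WT arrays, and the genotype difference of 3.30 ± 0.58 missed the threshold (adjusted p = 0.0535). Without the 2 arrays that stood apart the rise in FSAP-/- mice was 1.09 (adjusted p = 0.0961). The fall in WT mice was lost without WT sham replicate 1 or 2 or WT BDL replicate 1 or 2 (adjusted p up to 0.0720).

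Gbp3 had 1.83, -0.49 and 0.33 in FSAP-/- BDL livers against -1.31, 0.63 and 0.59 in FSAP-/- sham livers (0.59 ± 0.61, adjusted p = 0.475), which overlap, and the change was -0.68 (adjusted p = 0.152) without the 2 arrays that stood apart. It fell in WT mice, with -1.53, -1.60 and -0.87 in WT BDL livers against 0.67, 1.26 and 0.89 in WT sham livers (-2.27 ± 0.61, adjusted p = 0.0151). That call was lost without WT sham replicate 2 or WT BDL replicate 2 (adjusted p up to 0.0530). Gbp2 rose in FSAP-/- mice, with 2.18, 0.33 and 0.92 in FSAP-/- BDL livers against -2.61, -0.36 and -0.045 in FSAP-/- sham livers (2.15 ± 0.65, adjusted p = 0.0238). Its call was lost without FSAP-/- sham replicate 1 (1.34, adjusted p = 0.0623) and without FSAP-/- BDL replicate 1 (1.63, adjusted p = 0.0866). WT levels of Gbp2 overlapped between BDL and sham livers (-0.086 ± 0.65).

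Igtp (Irgm3), Irgm1 and Iigp1 (Irga6) are immunity-related GTPases. Igtp had 5.41, 2.16 and 2.19 in FSAP-/- BDL livers, 2.89, 3.32 and 3.29 in FSAP-/- sham livers, 1.59, 1.86 and 1.72 in WT BDL livers and 3.61, 3.77 and 3.55 in WT sham livers. One FSAP-/- BDL array was the highest of the 12, and the other 2 lay below all sham arrays of both genotypes. The BDL change in FSAP-/- mice was 0.092 ± 0.68 with all arrays and turned to -0.99 (adjusted p = 0.00202) without FSAP-/- BDL replicate 1. Without both arrays that stood apart, Igtp had -1.13 (adjusted p = 0.00107), Irgm1 had -0.68 (adjusted p = 0.0267) and Iigp1 -0.93 (adjusted p = 0.00237). In WT mice the changes were -1.92 ± 0.68 for Igtp (adjusted p = 0.0507), -0.83 ± 0.41 for Irgm1 (adjusted p = 0.149) and -1.03 ± 0.39 for Iigp1 (adjusted p = 0.0663). None of the 3 passed with all arrays, although the WT BDL arrays lay below the WT sham arrays for each. Leaving out FSAP-/- BDL replicate 1, which narrows the spread shared by the groups, brought all 3 past the threshold in WT mice.

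CXCL9, CXCL10 and CXCL11 attract T and NK cells through the receptor CXCR3. Cxcl9 had the largest fall of any member in WT mice and the largest SD of any member among FSAP-/- BDL mice. Its level was 2.72, -1.16 and -0.27 in FSAP-/- BDL livers, -1.77, -0.19 and -0.17 in FSAP-/- sham livers, -2.11, -3.04 and -2.91 in WT BDL livers and 0.47, 0.65 and 0.26 in WT sham livers. The BDL change in FSAP-/- mice was 1.14 ± 0.82 (adjusted p = 0.300), and -0.53 (adjusted p = 0.283) without the 2 arrays that stood apart. The change in WT mice was -3.15 ± 0.82 (adjusted p = 0.0132), and the call was kept without any 1 array (adjusted p up to 0.0453). After BDL the FSAP-/- arrays all lay above the WT arrays (3.11 ± 0.82, adjusted p = 0.146).

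Cxcl10 rose in FSAP-/- mice, with 2.62, -0.053 and 0.20 in FSAP-/- BDL livers against -2.34, -0.63 and -0.86 in FSAP-/- sham livers (2.20 ± 0.63, adjusted p = 0.0192). This call was lost without FSAP-/- sham replicate 1 (1.66, adjusted p = 0.0685), and without both arrays the rise was 0.81 (adjusted p = 0.0191). In WT mice the levels were -1.48, -1.37 and -1.20 after BDL and -0.41, -0.67 and -0.12 after sham surgery, without overlap but not called (-0.95 ± 0.63, adjusted p = 0.282). Cxcl11 was not called, with -0.48 ± 0.23 in FSAP-/- and -0.27 ± 0.23 in WT mice, and neither of its 2 probes passed. The probes differed widely in mean level (7.55 for the one used and 1.46 for the other). Which of them measures Cxcl11 was not tested.

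**Figure D3:**
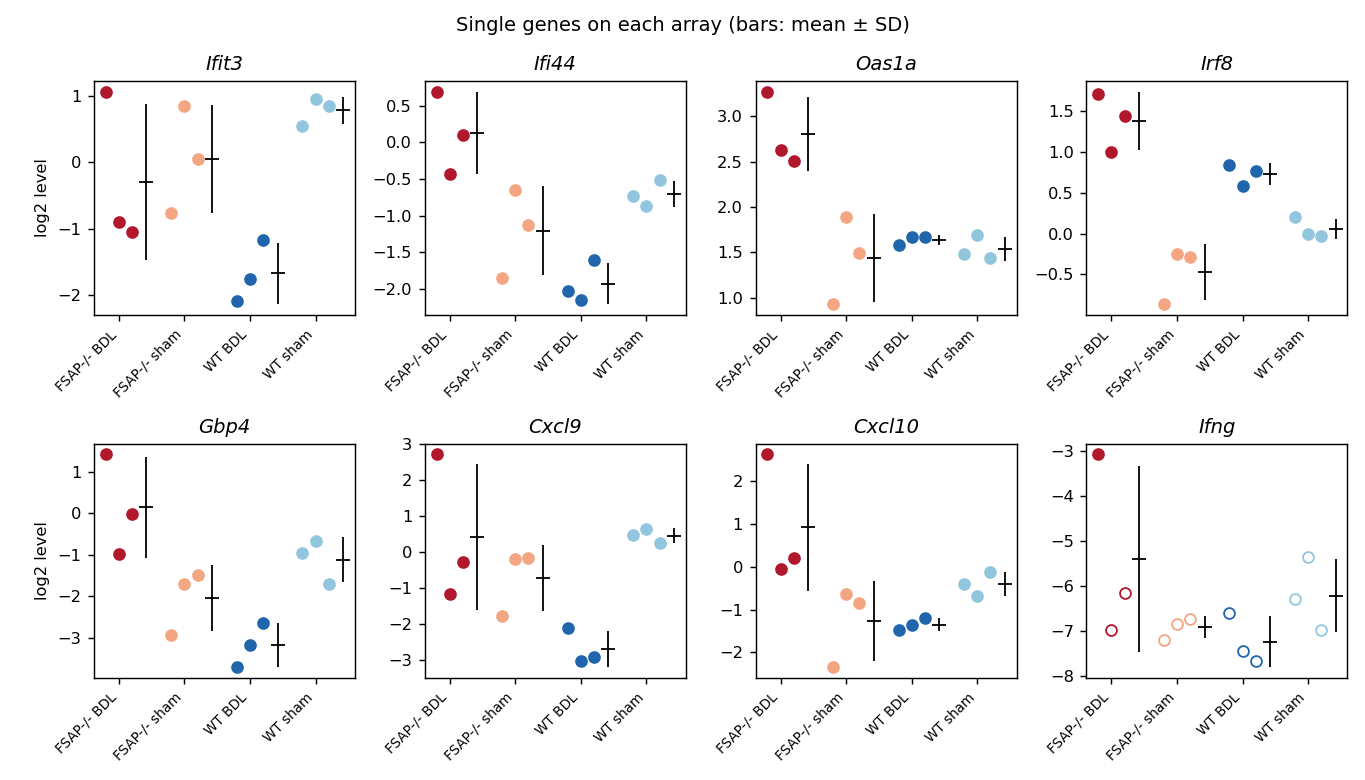
Log2 level of 7 members and of Ifng on each array, by group; bars are the mean ± SD of 3 mice, and open symbols are not well above background. FSAP-/- BDL replicate 1 (leftmost point) is the highest of its group in every panel and the only array with Ifng above background.

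Promoters of the 3 Gbp, Irg and Cxcl9 genes with the largest WT changes and a listed window follow (RefSeq, GRCm38.p6). Cxcl9 lies on the minus strand at chr5:92328080-92328329, Gbp3 on the plus strand at chr3:142559794-142560043 and Igtp on the plus strand at chr11:58199306-58199555, with the 2 motifs in capitals as above.
Cxcl9: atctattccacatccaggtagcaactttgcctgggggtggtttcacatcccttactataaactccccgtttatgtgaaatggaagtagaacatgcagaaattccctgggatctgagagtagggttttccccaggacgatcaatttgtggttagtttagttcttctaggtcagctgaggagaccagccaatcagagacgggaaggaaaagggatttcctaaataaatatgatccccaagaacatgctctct
Gbp3: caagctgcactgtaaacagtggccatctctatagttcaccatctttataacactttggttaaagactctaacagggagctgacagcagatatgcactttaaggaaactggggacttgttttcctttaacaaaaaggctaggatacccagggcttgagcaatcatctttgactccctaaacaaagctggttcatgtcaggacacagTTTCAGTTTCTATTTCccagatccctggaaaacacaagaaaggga
Igtp: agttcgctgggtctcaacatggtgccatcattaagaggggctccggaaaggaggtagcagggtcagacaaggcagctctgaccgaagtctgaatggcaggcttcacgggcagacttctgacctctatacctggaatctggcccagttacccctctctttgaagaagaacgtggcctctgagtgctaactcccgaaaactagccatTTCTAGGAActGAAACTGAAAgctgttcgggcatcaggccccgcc
Gbp3 carries 2 overlapping matches to the response element core, Igtp carries 1 match to each motif, and the Cxcl9 window carries neither.

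Both motifs occurred among the Ifit, Oas and Mx genes and among the Gbp, Irg and Cxcl9 genes. Windows from 250 bases before to 50 after the start were listed for 29 of the 40 members, 8 of the 11 in the first set and 5 of the 7 in the second. GAAANNGAAA on either strand occurred in 16 of 29 members (55.2%), against 1079 of 27025 genes with a window (3.99%). It was found in 5 of 8 Ifit and Oas genes, 4 of 5 Gbp, Irg and Cxcl9 genes and 7 of 16 others. TTCNNNGAA, which reads the same on both strands, occurred in 8 of 29 members (27.6%) against 2582 genes (9.55%), with 2 of 8, 1 of 5 and 5 of 16 in the same order. Both motifs were held by 3 members (Bst2, Igtp and Oas1a), sharing bases in 1 (Bst2), and 8 held neither. These matches describe letters in a window and are not measured binding sites.

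**Figure D4:**
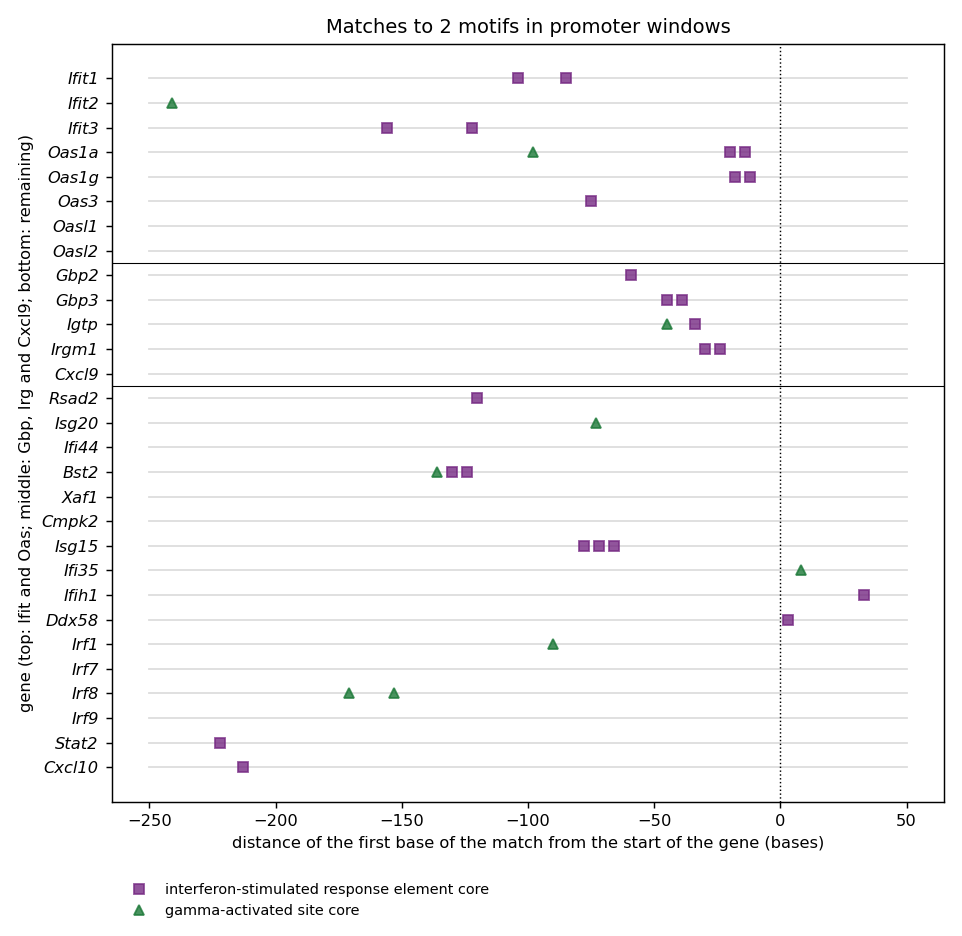
Position of the first base of each match to the response element core (squares) and the gamma-activated site core (triangles) in the promoter windows of the 29 members with a window, in bases from the start of the gene; grey lines span the window, and genes with several listed starts have their windows laid over one another. Squares occur in both the upper and the middle block.

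The Ifit, Oas and Mx genes and the Gbp, Irg and Cxcl9 genes had medians of the same sign in each comparison, farther from 0 for the second set in 4 of 5. The signs differed in the sham comparison with slide as a block, where the medians were -0.35 and 0.069, and in the FSAP-/- comparison under the settings given next. In FSAP-/- mice the median BDL change was 0.72 for the 10 Ifit, Oas and Mx genes (3 rose, 1 fell), 0.59 for the 7 Gbp, Irg and Cxcl9 genes (2 rose, 0 fell) and 0.28 for the 22 others (4 rose, 0 fell). Without the 2 arrays that stood apart they were 0.083, -0.68 and -0.21, so the first set lay near 0 and the second below it. Within slide 3, with FSAP-/- sham replicate 3 as the lone sham array, they were 0.42, -0.029 and 0.074. In WT mice the medians were -0.92 (4 fell, 0 rose), -1.92 (3 fell, 0 rose) and -0.53 (7 fell, 1 rose). Within slide 1, where WT BDL replicate 1 met all 3 WT sham arrays, the medians were -1.11, -2.05 and -0.68.

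Between genotypes the medians after BDL were 1.29 for Ifit, Oas and Mx genes, 1.53 for Gbp, Irg and Cxcl9 genes and 0.47 for the others. Without FSAP-/- BDL replicate 1 these were 0.92, 0.69 and 0.24. After sham surgery the medians were -0.56, -0.92 and -0.27, and -0.29, -0.33 and -0.082 without FSAP-/- sham replicate 1. On single arrays the Gbp, Irg and Cxcl9 genes stood at 1.77, -1.06 and -0.73 from their WT sham means in FSAP-/- BDL livers, -1.82, -0.33 and -0.35 in FSAP-/- sham livers and -2.05, -1.78 and -1.53 in WT BDL livers. For the Ifit, Oas and Mx genes the same values were 0.76, -0.32 and -0.12, then -1.16, -0.019 and -0.47, then -1.11, -0.98 and -0.84. FSAP-/- BDL replicates 2 and 3 thus lay between the WT BDL and WT sham arrays in both sets.

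**Figure D5:**
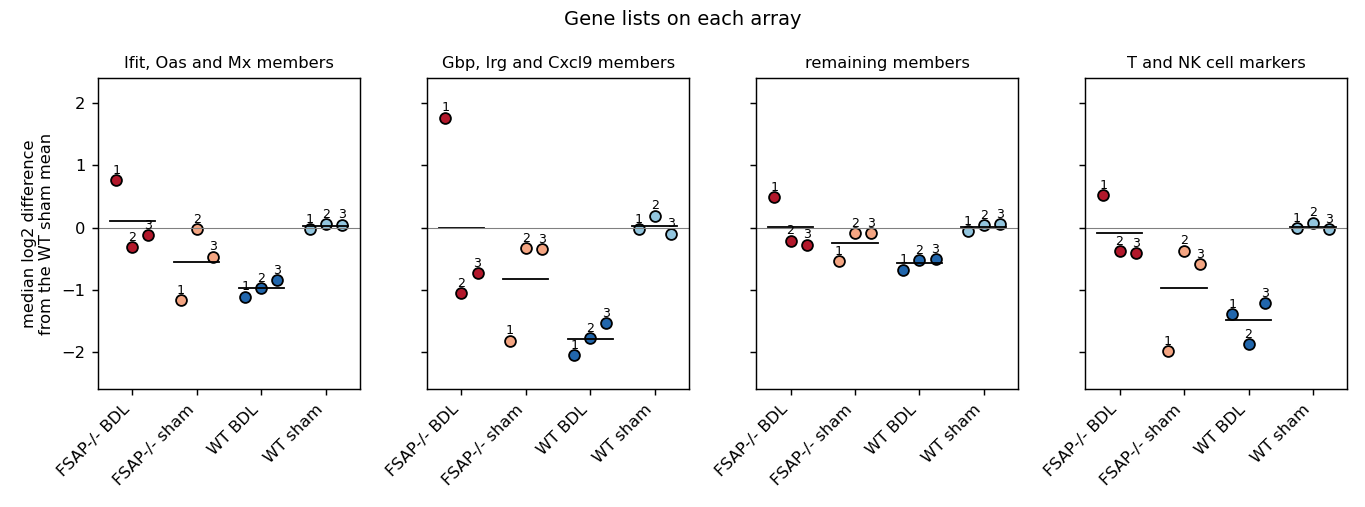
Median log2 difference from the WT sham mean on each array for the Ifit, Oas and Mx members, the Gbp, Irg and Cxcl9 members, the remaining members and T and NK cell markers; numbers are replicates and lines are group means. FSAP-/- BDL replicate 1 is the highest and FSAP-/- sham replicate 1 the lowest of its group in all 4 panels.

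Genes outside the 40 that belong to the same programmes were counted from lists, to be read against the shares of all genes called, 16.2% higher and 22.8% lower in FSAP-/- mice and 15.2% higher and 17.7% lower in WT mice. Of 18 further gamma-type GTPases and targets tested, 7 rose and 1 fell after BDL in FSAP-/- mice, and 0 rose and 6 fell in WT mice. In FSAP-/- mice 5 rose and 5 fell without the 2 arrays that stood apart. Gbp11 fell by 3.53 ± 0.80 on the log2 scale in WT mice, with Gbp6, Gbp7 and the immunoproteasome subunit Psmb9 also falling (-2.24, -2.24 and -1.26). Among the genes that rose in FSAP-/- mice, the log2 change was 2.76 ± 0.68 for Tgtp2, 2.18 ± 0.69 for Gbp2b and 1.96 ± 0.46 for Gbp5, and 1.40, 0.73 and 1.1 without the 2 arrays, where the Gbp2b call was lost (adjusted p = 0.127). Gbp8 also rose there, at least 2.84-fold, since it was not well above background in FSAP-/- sham livers. After BDL all 18 had higher means in FSAP-/- than in WT livers (median 1.35), none called by limma. Of the 18, 14 (77.8%) had an unadjusted limma p below 0.05, against 12.9% of all genes. Without the 2 arrays that stood apart the median was 0.87 and 1 was called, against 0.205% of all genes. FSAP-/- BDL replicate 1 was the highest of its group for 18 of 18 and FSAP-/- sham replicate 1 the lowest for 18 of 18.

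Among 43 other interferon-induced genes tested, 9 rose and 4 fell after BDL in FSAP-/- mice, against 1 rise and 5 falls in WT mice. With the same 2 arrays left out, 5 rose and 8 fell in FSAP-/- mice. Slfn2, a growth regulator of the Schlafen family, rose in both, by 2.84 ± 0.29 in FSAP-/- and 0.99 ± 0.29 in WT mice. Ifi204 (1.77 ± 0.31), a DNA-binding protein, and Tor3a (1.54 ± 0.32) rose in FSAP-/- mice, and Ifit3b, a close copy of Ifit3, fell in WT mice (-2.90 ± 0.55). The rises of Slfn2, Ifi204 and Tor3a in FSAP-/- mice were 2.55, 1.47 and 1.19 without the 2 arrays and stayed past the threshold. Probes of Ifit3 and Ifit3b may share target, so these are not separate evidence.

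Genes that start or stop interferon signalling were counted likewise. Of 15 genes that induce interferon, 4 rose and 2 fell in FSAP-/- mice and 5 rose and 2 fell in WT mice after BDL, with 4 and 2 in FSAP-/- mice without the 2 arrays as well. The cytosolic DNA sensor Cgas (1.69 ± 0.24 in FSAP-/-, 0.76 ± 0.24 in WT) and its adaptor Sting1 (1.91 ± 0.21 and 1.19 ± 0.21) rose, and the RNA pathway adaptor Mavs (-1.25 ± 0.18 and -0.71 ± 0.18) and Tlr9 (-1.28 ± 0.18 and -0.95 ± 0.18) fell. Of 10 brakes, 3 rose and 1 fell in FSAP-/- mice and 1 rose and 2 fell in WT mice, with 2 and 0 in FSAP-/- mice without the 2 arrays. Socs3, an inhibitor induced by cytokines, rose by 1.41 ± 0.42 in FSAP-/- and 2.19 ± 0.42 in WT mice, Socs1, an inhibitor of interferon gamma signalling, rose in FSAP-/- mice (1.64 ± 0.52), and Irf2, a repressor, fell in both (-0.50 ± 0.17 and -0.80 ± 0.17). The FSAP-/- calls of Socs1 (0.81, adjusted p = 0.241) and Irf2 (-0.31, adjusted p = 0.230) were lost without the 2 arrays that stood apart.

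Marker lists of several immune cells stood apart on the same 2 FSAP-/- arrays as the Gbp, Irg and Cxcl9 genes. Of 16 T and NK cell markers, cells that make interferon gamma, 11 were tested, and their median difference from WT sham was 0.52, -0.38 and -0.41 on FSAP-/- BDL arrays, -1.98, -0.37 and -0.58 on FSAP-/- sham arrays and -1.40, -1.87 and -1.21 on WT BDL arrays. Of the 11, 3 rose and 1 fell in FSAP-/- mice, and 1 rose and 7 fell in WT mice, with 1 and 0 in FSAP-/- mice without the 2 arrays. Of all genes, 16.2% rose and 22.8% fell in FSAP-/- mice, and 15.2% rose and 17.7% fell in WT mice. The FSAP-/- shares without the 2 arrays were 14.4% and 19.4%. Their summed linear level, which bright markers dominate, ran from 27.2 to 37.0 in FSAP-/- BDL, 49.2 to 65.2 in FSAP-/- sham, 26.2 to 59.1 in WT BDL and 31.8 to 51.5 in WT sham livers. The NK receptors Ncr1 and Klrb1c were not above background on any array. The 7 neutrophil markers tested had medians of 3.01, 0.0095 and -0.44 on FSAP-/- BDL arrays, -1.67, -0.81 and 0.0057 on FSAP-/- sham arrays and 1.21, 2.71 and 0.024 on WT BDL arrays. For conventional dendritic cells the same medians were 0.98, 0.47 and 0.28, then -1.03, -0.14 and -0.28, then 0.46, 0.1 and 0.37. The arrays differed less for plasmacytoid dendritic cell markers, 6 tested. Their medians were 0.34, 0.10 and -0.22, then -0.29, 0.16 and 0.059, then 0.0050, -0.068 and -0.60. B cell markers, 4 tested, were low on WT BDL arrays like the T and NK markers: -0.95, -0.54 and -0.51 on FSAP-/- BDL arrays, -1.31, 0.37 and -0.31 on FSAP-/- sham arrays and -1.04, -1.17 and -0.93 on WT BDL arrays. The part of these cells in the results was not tested.

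Macrophage markers were higher and hepatocyte markers lower after BDL. The counts are to be read against all genes, of which 16.2% rose and 22.8% fell in FSAP-/- mice (14.4% and 19.4% without the 2 arrays). In WT mice 15.2% rose and 17.7% fell. Of 10 macrophage markers, 10 rose in FSAP-/- and 8 in WT mice after BDL, and their summed level was 116 to 144 in FSAP-/- BDL, 33.2 to 50.04 in FSAP-/- sham, 106 to 110 in WT BDL and 41.6 to 63.1 in WT sham livers. Their median difference from WT sham was 1.72, 1.51 and 1.63 on FSAP-/- BDL arrays, -0.79, -0.021 and -0.17 on FSAP-/- sham arrays and 1.17, 0.84 and 1.26 on WT BDL arrays. Of 9 hepatocyte markers, 6 fell in FSAP-/- and 3 in WT mice, with sums of 1421 to 1963, 2939 to 3245, 1508 to 2508 and 2790 to 3170 in the same order. Of 10 cholangiocyte markers, 7 rose and 1 fell in each genotype. Leaving out the 2 FSAP-/- arrays that stood apart, 8 macrophage markers rose and 5 hepatocyte markers fell in FSAP-/- mice. Of 6 conventional dendritic cell markers tested, 3 rose in FSAP-/- mice (2 without those arrays), and 2 rose and 1 fell in WT mice, while Xcr1 and Cd209a were not above background on any array. The part of these shifts in the members' changes was not tested.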

How the data were processed

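Liver RNA of 12 mice, 3 in each of 4 groups, was hybridised to one-colour arrays, 1 mouse per array. The deposited processed signal intensity of each spot was made by Agilent Feature Extraction 10.5.1.1 with background subtraction, per the file headers. The authors' deposited series table holds log2 values of the same arrays; their normalisation, not given in the sources used here, is unknown, and they served only as an alternative. The array file of FSAP-/- sham replicate 1 had been saved again with its spots in another order and was joined by probe name. Nothing in the labels ties mice to litters, and p-values measure the spread between these mice. That spread was pooled over the 4 groups, so an SE or p of a WT comparison also reflects the wider spread of the FSAP-/- mice. The precision is limited by 3 arrays a group.

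Signals were taken as log2 minus the 75th percentile of each array, without control spots. Repeated spots were averaged per probe, and each symbol was read from its brightest probe among 39429. Of the probes, 33063 carried a RefSeq accession and 26412 matched the RefSeq gene table, which renewed 3093 symbols. Genes well above background on at least 3 arrays were fitted with limma 3.58.1 in R 4.3.3 as 4 group means over all 12 arrays, with Benjamini-Hochberg adjustment over the 19529 genes and a threshold of 0.05, two-sided. Every p in the text is from limma, over all arrays and a gene's brightest probe unless the sentence names arrays left out, a block or a second probe. The script was tested on simulated data. "Well above background" is the scanner software's call, and a fold with a group below it is given as a bound, the brighter group's mean over the higher of the dim probe's signal and each array's lowest signal well above background.

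The members and all lists were chosen with earlier results of these data known. The text names all 40 members, Habp2, Ifng, Ifnb1 and the receptor chains, and at most 4 called genes per further list and comparison. Motifs were searched in RefSeq promoter windows (GRCm38.p6). The alternatives were normexp background correction with an offset of 50, median and quantile scaling, the series table, other background filters, the mean of probes, slide and replicate number as blocks, only the groups compared, and leaving out arrays. One item is not reported here.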

Additional observations from a re-analysis of the deposited data

Results flagged for a closer look

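For 4 members the BDL change ran upward in FSAP-/- mice and downward in WT mice, with no overlap of BDL and sham arrays in either genotype, as for 72 of the 19529 genes tested (0.369%). The interaction, the FSAP-/- change minus the WT change, was 1.87 for Ifit2 (limma adjusted p = 0.118), 2.55 for Ifi44 (adjusted p = 0.110), 4.23 for Gbp4 (adjusted p = 0.111) and 3.14 for Cxcl10 (adjusted p = 0.169). For 5 more the genotype difference ran upward after BDL and downward after sham surgery, again with no overlap, as for 222 of all genes tested (1.14%). Their interactions were 1.20 for Rtp4 (adjusted p = 0.315), 1.18 for Irf8 (adjusted p = 0.156), 2.86 for Gbp3 (adjusted p = 0.184), 2.01 for Igtp (adjusted p = 0.390) and 4.29 for Cxcl9 (adjusted p = 0.159). None of the 9 passed the threshold. Without the 2 arrays that stood apart the interactions of these genes were 1.43, 1.94, 3.14 and 1.76 for the first 4, and 0.57, 0.82, 1.59, 0.79 and 2.61 for the other 5, in the order given.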

How the results depend on the processing

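For BDL in FSAP-/- mice, 10 members were called, 5 with slide as a fixed block and 6 with only the groups compared. Comparing only those groups lost Mx2, Oas3, Gbp2 and Cxcl10. When 1 array was left out, 6 to 11 were called, the lowest without FSAP-/- sham replicate 1. Of all genes, 21.3% were called with the slide block and 28.6% with only the groups compared, against 12.8% and 15.4% of members. Without FSAP-/- sham replicate 1 the shares were 35.4% of all genes and 15.4% of members. At 11 calls, without FSAP-/- BDL replicate 1, they were 35.3% and 28.2%. For BDL in WT mice, 15 were called, 4 with the slide block and 23 with only the groups compared. Without both arrays that stood apart 24 were called, and 10 to 21 when 1 array was left out. The 10 calls came without WT sham replicate 2 or 3 or WT BDL replicate 2. They were 25.6% of members, near the 24.7% to 25.4% of all genes. The 21 calls, without FSAP-/- BDL replicate 1, were 53.8% of members, against 32.6% of all genes. Of all genes, 16.8% were called with the slide block, against 10.3% of members. With only the groups compared the shares were 36.3% of all genes and 59% of members, and without both arrays 35.5% and 61.5%. The WT arrays are the same in the settings with 23 and 24 calls, which drop FSAP-/- arrays from the shared spread. For genotype after BDL, 1 was called, against 4 with normexp. Median scaling, quantile scaling, the series table, the filter on 6 arrays and leaving out both arrays gave 2 each. Those were 5.13% to 5.26% of members, against 0.205% to 0.343% of all genes. No filter, slide as a fixed or random block, only the groups compared and the replicate block gave 0 each. When 1 array was left out, 0 to 6 were called, the highest without FSAP-/- sham replicate 1. Of all genes, 0.711% were called with normexp, against 10.3% of members. Without FSAP-/- sham replicate 1 the shares were 0.461% of all genes and 15.4% of members. Genotype after sham surgery gave 0 under each alternative run. The interaction gave 0 when any 1 array was left out. Leaving out the Y-linked arrays left 1 FSAP-/- BDL array, so no count is given for that setting.

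The BDL change in FSAP-/- mice reversed for Igtp, whose range was -0.99 to 0.64 when 1 array was left out, with -0.99 without FSAP-/- BDL replicate 1, -1.11 without the Y-linked arrays and -1.13 without both arrays, and for Irgm1, to -0.77 and -0.68 under those last settings. The median of the Ifit, Oas and Mx genes minus that of the Gbp, Irg and Cxcl9 genes was 0.13 for BDL in FSAP-/- mice (-0.21 to 0.45 when 1 array was left out, 0.76 without both) and 1.00 in WT mice (0.80 to 1.06). It was 0.36 for genotype after sham surgery (0.039 to 0.62, and -0.42 with the slide block), -0.24 after BDL (-0.71 to 0.22, and -0.79 with normexp) and -0.35 for the interaction (-0.80 to -0.087, -0.88 with normexp and 0.27 without both). The causes were not tested.

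The replicate numbers did not pair the arrays, with correlations of same-numbered deviations from -0.20 to 0.19. With the replicate block 9 members were called for BDL in FSAP-/- mice (23.1%, against 37.6% of all genes). In WT mice 13 were called with it (33.3%, against 31.5% of all genes). With median scaling the median of all genes moved to -0.36 for BDL in FSAP-/- mice and -0.19 in WT mice. Over all genes, 4150 were called with the slide block, against 7630 without it, for BDL in FSAP-/- mice, and 3285 against 6418 in WT mice. For genotype, 2 to 139 were called after BDL (42 in the fit reported) and 1 to 3 after sham surgery (3). The interaction called 0 to 22 (2) where each group kept at least 2 arrays. A response element followed by CT was found in 10 members with a window, against 16 for the core alone. Of single-member values under alternatives, 4700 kept direction and call, 104 lost a call, 91 gained one and 9 untested values moved.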
